A study of Mus musculus with 6 samples.

Results

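Strong intronic peaks were the open-chromatin peaks annotated to an intron of a gene, lying more than 1000 bases from that gene's transcription start site in either direction, with a mean of at least 15 CPM (reads per 1000000 reads in peaks) over 6 libraries. There were 695 of them among 282898 listed peaks, or 0.246%. The peaks were chosen by this mean level and by position. They made up 0.8998% of the 77240 intronic peaks beyond 1000 bases and 6.84% of the 10159 peaks that reached the same level anywhere. Libraries were prepared by ATAC-seq, which reads where a transposase can insert adaptors into open DNA, from T follicular helper (Tfh) cells sorted directly from mice. Cells carried either intact Stat6 (WT) or a Stat6 knockout (KO), and each genotype was sorted into the populations Tfh21, Tfh214 and Tfh4, whose sort markers and tissue are not given in the sources used here. All 6 groups were of strain C57BL/6 and untreated, 10 mice served for each genotype, and 50000 cells went into each library. Each of the 6 groups was 1 library, so no group had a replicate, and an effect of genotype cannot be told apart from one of the pooled mice or of library preparation.

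Tfh cells are CD4 T cells that enter B cell follicles and help B cells make antibody. STAT6 is the transcription factor through which the IL-4 receptor signals. Introns hold many of the enhancers of mammalian genes, stretches where transcription factors bind far from a promoter and nucleosomes are displaced, and such stretches are often more specific to a cell type than promoters. An enhancer inside a gene may act on that gene or on another, and ATAC-seq measures only that the stretch is open.

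The WT libraries held 1122701, 1271755 and 1373218 reads in peaks (for Tfh21, Tfh214, Tfh4), and the KO libraries 1051120, 798555 and 1238585. Each KO library was thus shallower than the WT library of its population. The part of depth in the differences below was not tested. At Stat6, 6 peaks were listed, none of them a strong intronic peak, with 51, 69 and 58 reads in WT (for Tfh21, Tfh214, Tfh4) and 57, 51 and 68 in KO; which part of the gene was deleted is not given in the sources used here, and these reads therefore do not check the genotype. The 12 T cell markers looked at (such as Cd3e, Cd4, Lck and Bcl11b) all had listed peaks, and their CPM summed to between 764 and 1043 in a library. Markers of other cells summed to 179 to 268 CPM for B cells (12 genes, with no peak listed at Cd79a and Ms4a1), 183 to 219 for myeloid cells (12 genes, none listed at Fcgr3), and 18.8 to 39.6 for CD8 T and NK cells (10 genes, none listed at Cd8a and Ncr1). In cells taken in bulk, a weaker peak may mean fewer cells with the site open or fewer cuts per cell, and these cannot be told apart.

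The level that chose the peaks is given as a description. Mean CPM ran from 15.01 to 87.8 with a median of 21.7 (quartiles 17.7 and 28.7). The mean took in all 6 libraries alike, but a peak low in some of them could still pass through the others. The 3 WT libraries alone averaged under 15 CPM at 95 peaks (13.7%) and the 3 KO libraries at 6 (0.863%), and the Tfh4 pair did so at 135 (19.4%). Such peaks had to differ between groups to be members. Of the 695 peaks, 278 lay under 20 CPM and 44 over 40 CPM. Each rested on 100 to 597 reads over the 6 libraries, with a median of 148, and none was at 0 in any library. The peaks just over the minimum lay in L3mbtl3 (15.008 CPM), Tnip3 (15.015) and Ets1 (15.038), and those just under it in Gucy2g (14.988), Arhgef3 (14.979) and Sgk1 (14.974). The list therefore ended in the middle of a continuous range of levels, not at a gap.

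The strongest peak lay in intron 1 of Arrdc3, which codes for an arrestin-domain protein, at chr13:81024574-81025721 (build mm9, as for all positions here), 1.90 kb from the start site. It stood at 90.9, 81.0 and 83.7 CPM in the 3 WT libraries and at 98.0, 91.4 and 81.5 CPM in the 3 KO libraries. Values for the 3 libraries of a genotype are given throughout in the order Tfh21, Tfh214, Tfh4. It also had one of the smallest spreads of all members, with a standard deviation (SD) of 0.11 on the log2(CPM + 1) scale over the 6 libraries. The second lay in intron 1 of Nfia, which codes for a nuclear factor I transcription factor, at chr4:97438587-97440175, and was the longest at 1588 bases. Its mean was 79.97 CPM. Next by mean level came intron 4 of Trps1 (65.5 CPM), a GATA-type zinc finger repressor, and intron 2 of St6galnac5 (63.5), a sialyltransferase. Foxk1 (60.5), a forkhead factor, and Itpk1 (60.3), an inositol phosphate kinase, followed. The tenth place was reached at 55.8 CPM by Disc1, after Nfatc1 (57.8), a factor driven by calcium signals from the T cell receptor, Abtb2 (56.7) and Pde4b (56.5), a cyclic AMP phosphodiesterase.

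Strong intronic peaks were spread widely and were long. They lay in 536 genes on 20 chromosomes, with 9 on X and 0 on Y or the mitochondrial genome, and 432 genes held just 1. Of the 536 gene symbols, 521 matched the RefSeq table (assembly GRCm38.p6, used for names only), and all 521 were protein-coding. Median length was 609 bases, against 433 for the 553 intronic peaks of 10 to under 15 CPM and 416 for the 75992 under 10 CPM. Length is not independent of the level that chose the peaks. Intron 1 held 209 of them (30.1%), compared with 34.0% of the 10 to 15 CPM peaks and 22.4% of the weakest ones. Median distance to the start site was 39.3 kb, against 30.8 kb and 50.7 kb, and 156 (22.4%) lay beyond 100 kb, against 16.8% and 32.4%. Position thus did not change steadily with level, as the middle class was the nearest to start sites. None of the 695 lay within 1000 bases of the start of any of the 22561 transcripts to which a listed peak was assigned. The member rule had already left out peaks that close to the start site of their own gene. Promoters of transcripts that are not listed could not be checked in this way.

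**Figure D1:**
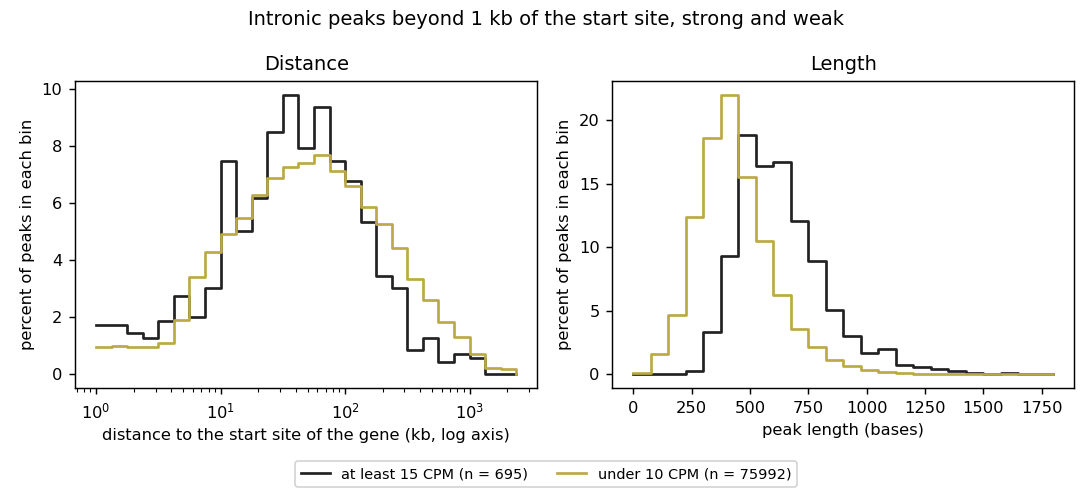
Share of intronic peaks (percent in each bin) by distance to the start site in kb on a log axis (left) and by length in bases (right), for the 695 peaks of at least 15 CPM and the 75992 under 10 CPM. The strong peaks were longer, with a median of 609 against 416 bases, and fewer of them lay beyond 100 kb.

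The 3 most distant members all lay in intron 7 of Pde4d, another cyclic AMP phosphodiesterase, between 1121.8 and 1183.3 kb from the start site used by the annotation. The strongest of them, at chr13:110612283-110613129, stood at 42.8, 45.6 and 37.9 CPM in the 3 WT libraries and at 44.7, 62.6 and 54.1 CPM in the KO libraries. Pde4d has many alternative promoters, and the distance is to the start site of the transcript that the annotation lists.

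As a class, the strong intronic peaks took different shares of the 6 libraries. In WT Tfh21 they held 1.64% of reads in peaks, with a Wilson 95% interval of 1.62 to 1.67. WT Tfh214 gave 1.75% (1.73 to 1.77) and WT Tfh4 gave 1.303% (1.28 to 1.32). Among KO libraries the share was 2.04% (2.02 to 2.07) in Tfh21, 1.84% (1.81 to 1.87) in Tfh214 and 1.67% (1.64 to 1.69) in Tfh4. Each KO library was above the WT library of its population, and Tfh4 was the lowest population in both genotypes. These intervals, like all intervals here, cover counting error only, because each group was 1 library. Reads without molecular identifiers are not independent molecules, so the intervals may be too narrow even for that.

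WT Tfh4 and KO Tfh21 stood at the ends. WT Tfh4 was the lowest of the 6 libraries at 433 of the 695 peaks and the highest at 2, while KO Tfh21 was the highest at 338 and the lowest at 7. WT Tfh4 was also the deepest library, whereas the shallowest was KO Tfh214, not KO Tfh21. Median CPM over the peaks was 16.7 in WT Tfh4 and 27.6 in KO Tfh21, and 21.4 to 23.8 in the other 4. Strong peaks of every kind moved with them: those at start sites took 22.9% of reads in WT Tfh4 and 31.4% in KO Tfh21, and intergenic ones 3.09% and 4.66%. The summed CPM of the B cell markers ran the other way, at 268 in WT Tfh4 and 179 in KO Tfh21, and its part in the result was not tested. Of reads in the 12979 peaks that averaged 10 CPM or more, strong intronic peaks took 4.39, 4.67 and 4.12% in the WT libraries and 4.61, 4.39 and 4.66% in the KO libraries (each Tfh21, Tfh214, Tfh4). On that base the range was narrower, KO was below WT in Tfh214, and Tfh4 was the lowest population in WT but the highest in KO.

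**Figure D2:**
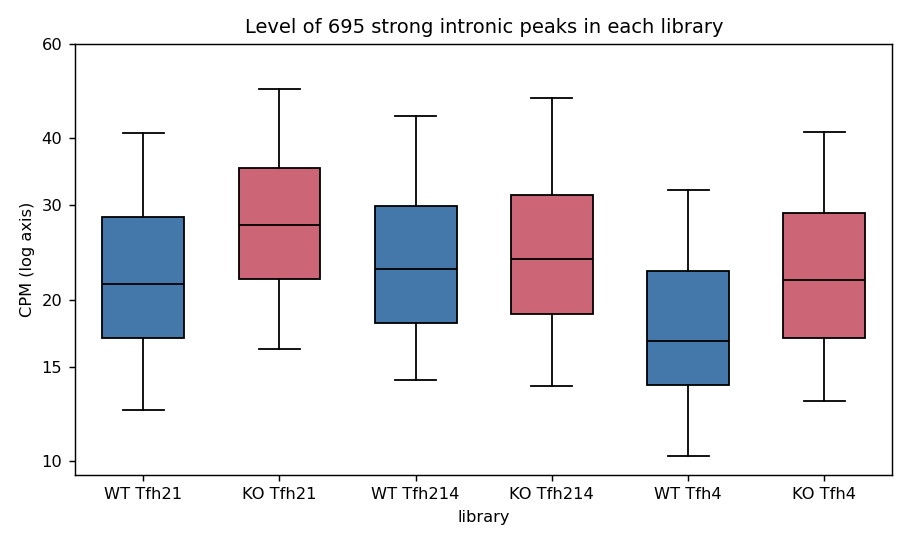
Level of the 695 strong intronic peaks in each library, in CPM on a log axis; boxes are quartiles with the median as a line, whiskers run from the 5th to the 95th percentile, and blue is WT and red KO. WT Tfh4 had the lowest median (16.7 CPM) and KO Tfh21 the highest (27.6).

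Set against strong peaks at start sites, intronic peaks had a different balance in each library. Among the reads of these 2 kinds together, the intronic share was 5.38% (Wilson 95% interval 5.31 to 5.46) in WT Tfh4, the lowest of the 6. It was 6.19% (6.11 to 6.27) in WT Tfh214 and 6.19% (6.11 to 6.27) in KO Tfh4, the highest, and 6.12% (6.04 to 6.19) in KO Tfh21. WT Tfh21 and KO Tfh214 lay between, at 5.77% (5.69 to 5.85) and 5.73% (5.64 to 5.82). The KO share was thus above the WT share in Tfh21 and Tfh4 and below it in Tfh214. Against the 1419 strong intergenic peaks the intronic share varied less relative to its size, at 29.7 to 30.8%. It was again lowest in WT Tfh4, at 29.7% (29.3 to 30.0). It was highest in WT Tfh214, at 30.8% (30.4 to 31.1), and KO Tfh4, at 30.7% (30.4 to 31.1).

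The same pattern was seen in the medians of KO against WT within each population. For strong intronic peaks the median log2 difference was 0.30 in Tfh21, 0.05 in Tfh214 and 0.35 in Tfh4. For strong intergenic peaks it was 0.29, 0.08 and 0.28, and for the 7371 strong peaks at start sites 0.22, 0.18 and 0.14. Intronic and intergenic peaks thus had higher medians than start sites in Tfh21 and Tfh4 and lower ones in Tfh214. At matched levels of 20 to 25 CPM, the median over populations was 0.25 for 157 intronic peaks, 0.21 for 319 intergenic ones and 0.14 for 1028 at start sites. At 40 to 60 CPM the gap was narrower, with 0.22 for 38 intronic peaks, 0.22 for 141 intergenic ones and 0.19 for 1788 at start sites. The 6 intronic peaks at 60 to 100 CPM had a median of 0.18, under the 0.21 of 695 start sites in that range. With 1 library in each group, a difference between populations in the effect of genotype could not be tested.

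**Figure D3:**
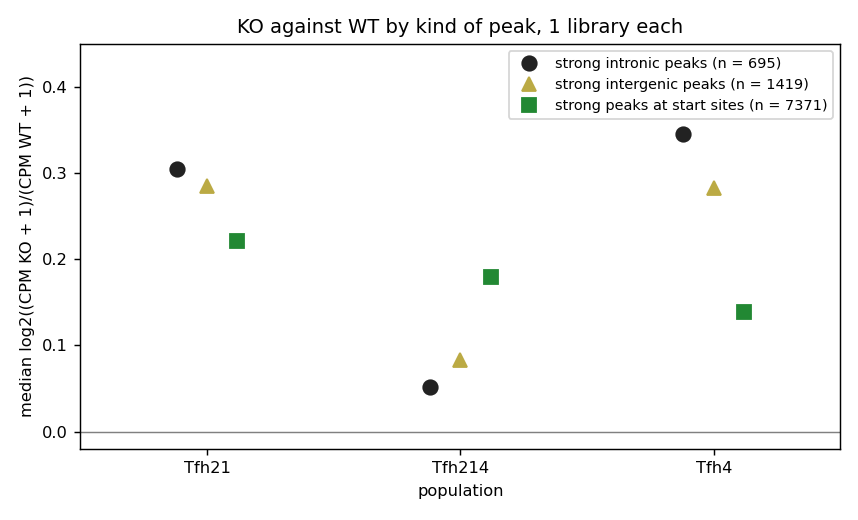
Median log2 ratio of KO to WT on the log2(CPM + 1) scale (y axis) in each population (x axis) for strong intronic, intergenic and start-site peaks, each point from 1 KO and 1 WT library. Intronic peaks had the highest median in Tfh21 (0.30) and Tfh4 (0.35) and the lowest in Tfh214 (0.05).

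KO against WT was then tested peak by peak over the 3 populations. Genotype and population entered as additive terms in a limma fit to log2(CPM + 1) of the 12979 peaks averaging at least 10 CPM, and a peak was called at a Benjamini-Hochberg adjusted p under 0.05. Because no group had a replicate, the spread behind these p-values was that of genotype differences over populations, not over animals. The fit drew the spread of each peak towards a trend by level over all tested peaks. A p-value therefore rests on spread shared with other peaks, not on that of its own peak alone. Strong intronic peaks had a median log2 difference of 0.23 (quartiles 0.10 and 0.36), a ratio of 1.17, and 609 of 695 (87.6%) were above 0. The same median over all 12979 peaks tested was 0.19, with 82.7% above 0, so peaks at large shared most of this shift. With libraries scaled by the median ratio over the tested peaks, an alternative added after seeing the data beside the same scaling over the 132693 peaks with reads in every library, the median of strong intronic peaks was 0.05 and 425 of 695 were above 0.

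Of the strong intronic peaks 3 (0.432%) were called higher in KO, against 0.277% of all tested peaks, and 0 were called lower, against 0% of all tested peaks. At 2 of the 3, Frmd4b and Rora, the WT libraries alone averaged under 15 CPM, so these were members only through their KO values. At an unadjusted p under 0.05 limma had 149 higher and 1 lower (21.6% in both directions), against 17.1% and 0.216% of all tested peaks. The 3 calls were lost with either median-ratio scaling, without the variance trend, with edgeR (0 called, 26 at an unadjusted p under 0.05) and with DESeq2 (0 called, 1 at an unadjusted p under 0.05). They turned also on single libraries: without WT Tfh21 or without KO Tfh21 0 were called, without KO Tfh4 1, and without WT Tfh214 or without KO Tfh214 33. Over the alternatives that gave a value, Frmd4b stayed called in 11 of 19, Rora in 7 of 20 and Cyb5a in 6 of 20.

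The largest difference was in intron 11 of Frmd4b, which codes for a FERM-domain scaffold protein, at chr6:97260794-97261276, 148.0 kb from the start site. It stood at 7.13, 14.2 and 10.2 CPM in the 3 WT libraries (8, 18 and 14 reads) and at 23.8, 30.1 and 21.0 CPM in the KO libraries (25, 24 and 26 reads). All KO values lay above all WT values. The log2 difference was 1.21 ± 0.24 (SE, adjusted p = 0.0155). By population the ratio of KO to WT was 3.34 (exact binomial 95% interval 1.46 to 8.56) in Tfh21, 2.12 (1.105 to 4.15) in Tfh214 and 2.06 (1.04 to 4.27) in Tfh4. This peak also had the largest spread over the 6 libraries of all members, an SD of 0.74 on the log2 scale. None of the 7371 strong start-site peaks belonged to Frmd4b.

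In intron 1 of Rora, which codes for the nuclear receptor ROR-alpha of T helper and innate lymphoid cells, a peak at chr9:68882067-68882658 lay 380.5 kb from the start site. It stood at 11.6, 14.2 and 15.3 CPM in the 3 WT libraries and at 31.4, 25.05 and 25.03 CPM in the KO libraries. The groups did not overlap, and the log2 difference was 0.94 ± 0.22 (adjusted p = 0.0427). The peak at the start site of Rora stood at 24.9, 26.7 and 22.6 CPM in the WT libraries and 37.1, 28.8 and 25.8 CPM in the KO ones, a log2 difference of 0.28 (adjusted p = 0.416) that did not pass.

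The third was in intron 3 of Cyb5a, which codes for cytochrome b5, an electron carrier in lipid metabolism, at chr18:85043492-85044095, 22.7 kb from the start site. It stood at 16.0, 18.9 and 16.7 CPM in the 3 WT libraries and at 34.2, 31.3 and 30.7 CPM in the KO libraries. WT and KO each kept within a narrow band in all populations, and the log2 difference was 0.86 ± 0.20 (adjusted p = 0.0409). At the start site of Cyb5a the values were 41.9, 41.7 and 32.0 CPM in the WT libraries and 55.2, 53.8 and 44.4 CPM in the KO ones, with a log2 difference of 0.40 (adjusted p = 0.144).

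**Figure D4:**
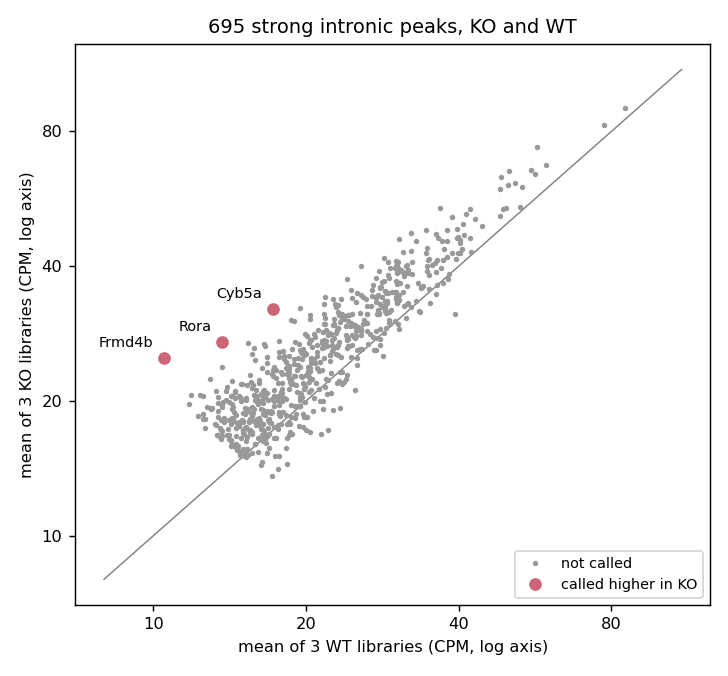
Mean CPM of the 3 KO libraries (y axis) against the mean of the 3 WT libraries (x axis) for 695 strong intronic peaks, both on log axes, with the line of equality; red points are called higher in KO. Most peaks lay above the line (609 of 695 by the log2 difference), and the 3 called, Frmd4b, Rora and Cyb5a, are labelled.

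No strong intronic peak passed the test for a lower level in KO. The lowest values were in intron 10 of Arhgap26, a GTPase-activating protein, intron 6 of Sfi1, a centrosomal protein, and intron 1 of Qprt, an enzyme of NAD synthesis. The Arhgap26 peak stood at 13.4, 21.2 and 18.2 CPM in the 3 WT libraries and at 21.9, 7.51 and 12.9 CPM in the KO ones, with a log2 difference of -0.39 (adjusted p = 0.44). Its KO value was above WT in Tfh21 and under it in the other 2 populations.

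Counted without a model, all 3 KO libraries lay above all 3 WT libraries at 103 strong intronic peaks (14.8%), against 12.8% of all tested peaks, and below them at 1 (0.144%), against 0.578%. With scaling over the tested peaks these counts were 50 (7.19%, against 4.98%) and 20 (2.88%, against 4.87%). KO was above WT within each of the populations at 260 peaks (37.4%, against 37.3% of all tested peaks), and below it within each at 9 (1.29%, against 2.57%). As deposited, the shares on the higher side were near those of all tested peaks, and those on the lower side were smaller.

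Within single populations, a difference of at least 2-fold on the log2(CPM + 1) scale was counted, which compares 2 libraries and has no test. In Tfh21, KO was at least 2-fold higher at 16 peaks (2.30%), against 1.96% of all tested peaks, and 0 were lower, against 0.0385%. In Tfh214, 5 were higher (0.719%, against 1.02% of all tested peaks) and 3 lower (0.432%, against 0.717%). In Tfh4, 29 were higher (4.17%, against 2.45%) and 1 lower (0.144%, against 0.362%). The shares were near the background in Tfh21 and Tfh214 and above it in Tfh4, the pair that holds WT Tfh4. With scaling over the tested peaks the counts higher in KO were 5 in Tfh21 (0.719%, against 0.555% of all tested peaks), 2 in Tfh214 (0.288%, against 0.455%) and 12 in Tfh4 (1.73%, against 1.102%).

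In Tfh4 the largest ratios were in intron 4 of Trps1, at chr15:50498802-50499398, with 6.55 CPM in WT and 20.2 CPM in KO, and in intron 3 of Ssbp2, which codes for a single-stranded DNA-binding protein, at chr13:91680521-91681102, with 10.2 and 30.7 CPM. The ratio of KO to WT was 3.08 (exact binomial 95% interval 1.39 to 7.50) at Trps1 and 3.01 (1.59 to 6.01) at Ssbp2. In Tfh21 the ratios were 1.42 (0.741 to 2.78) and 1.11 (0.635 to 1.93), and in Tfh214 0.885 (0.365 to 2.02) and 0.796 (0.398 to 1.53). At both peaks WT Tfh4 was the lowest library of the 6. The only peak at least 2-fold lower in KO Tfh4 was in intron 3 of Sept9, a septin, at 29.9 CPM in WT and 12.9 CPM in KO, a ratio of 0.433 (0.227 to 0.788).

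In Tfh21 the largest ratio beside Frmd4b was in intron 1 of Rlf, a zinc finger gene, at chr4:120868782-120869361. It stood at 11.6 CPM in WT and 33.3 in KO, a ratio of 2.88 (1.48 to 5.92), whereas it was 1.09 (0.495 to 2.33) in Tfh214 and 1.43 (0.728 to 2.88) in Tfh4. In Tfh214 the largest ratios were 2.52 (1.16 to 5.70) in intron 1 of Tha1, a threonine aldolase, and 2.30 (1.21 to 4.45) in intron 3 of Mid1 on chromosome X, a microtubule-associated ubiquitin ligase. The lowest in Tfh214 were 0.354 (0.119 to 0.875) at the Arhgap26 peak and 0.411 (0.163 to 0.914) in intron 9 of Casc1. The Tha1 ratio was 1.31 (0.668 to 2.58) in Tfh21 and 0.739 (0.367 to 1.45) in Tfh4. The Casc1 ratio was 1.29 (0.674 to 2.51) in Tfh21 and 1.33 (0.704 to 2.54) in Tfh4. All 4 of these intervals include 1.

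Between populations, Tfh4 was the lowest as deposited. Against Tfh21 the median log2 difference of strong intronic peaks was -0.30 and 622 of 695 were below 0, beside a median of -0.27 over all tested peaks. Against Tfh214 it was -0.27 with 571 of 695 below 0, beside -0.23 over all tested peaks. Tfh214 and Tfh21 differed by a median of -0.04, the same as over all tested peaks. After scaling over the tested peaks these 3 medians were -0.03, -0.05 and 0.01, and the counts below 0 for Tfh4 were 404 and 392 of 695.

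The step from Tfh214 to Tfh4 was larger in WT than in KO for these peaks. In WT the median log2 difference of Tfh4 from Tfh214 was -0.41 (605 of 695 below 0), and in KO it was -0.12 (433 below 0). At strong start sites the same medians were -0.20 in WT and -0.25 in KO. Strong intergenic peaks went the same way as the intronic ones, at -0.33 in WT and -0.14 in KO. Tfh4 against Tfh21 was alike in the genotypes, at -0.33 in WT and -0.28 in KO. Tfh214 lay above Tfh21 in WT by a median of 0.09 and under it in KO, at -0.16. Strong intergenic peaks had 0.05 in WT and -0.15 in KO, and all tested peaks 0.01 and -0.09. Each of these values rests on 1 library on either side, and the difference between genotypes was not tested.

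By limma, 4 strong intronic peaks (0.576%) were called lower in Tfh4 than in Tfh21, against 0.447% of all tested peaks, and 0 higher, against 0%. Against Tfh214, 8 (1.15%) were called lower in Tfh4, against 0.74% of all tested peaks, and 0 higher, against 0.0077%. Between Tfh214 and Tfh21, 0 were called higher (0% of all tested peaks) and 0 lower (0%). At an unadjusted p under 0.05, limma had 33 peaks between Tfh214 and Tfh21, 13 higher (1.01% of all tested peaks) and 20 lower (3.24%), edgeR 21 and DESeq2 0. At that level limma had 2 higher (0.131% of all tested peaks) and 153 lower (21.2%) in Tfh4 than in Tfh21. Against Tfh214 it had 2 higher (0.47%) and 147 lower (18%). In either direction edgeR had 23 and 31 and DESeq2 0 and 0. The Tfh4 pair alone averaged under 15 CPM at 1 of the 4 and at 1 of the 8 called peaks, in both cases the peak in Nav2. All 12 calls against Tfh4 were lost with either median-ratio scaling, without the variance trend, with edgeR and with DESeq2. Single libraries decided the counts: the 4 became 0 without WT Tfh21 or without KO Tfh21, 28 without WT Tfh214, 35 without KO Tfh214 and 18 without KO Tfh4. The 8 became 0 without WT Tfh21 or without KO Tfh21, 3 without WT Tfh214 or without WT Tfh4, 19 without KO Tfh214 and 21 without KO Tfh4.

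Nav2 and Ptpn5 were called in both comparisons. The peak in intron 2 of Nav2, which codes for a neuron navigator protein, at chr7:56619828-56620320, stood at 24.0 CPM in WT Tfh21, 25.9 in WT Tfh214 and 8.74 in WT Tfh4. In KO it stood at 25.7, 28.8 and 13.7 CPM. Both Tfh4 values lay under all 4 others, and the log2 difference was -1.11 ± 0.26 from Tfh21 (adjusted p = 0.0442) and -1.24 ± 0.26 from Tfh214 (adjusted p = 0.0198). The start site of Nav2 did not follow, at 13.1 and 17.8 CPM in Tfh4 and 15.1 to 20.04 CPM elsewhere. In intron 2 of Ptpn5, a tyrosine phosphatase, at chr7:54366347-54367288, the values were 32.1, 37.0 and 14.6 CPM in the WT libraries and 36.2, 35.1 and 22.6 CPM in the KO ones, again with both Tfh4 libraries lowest. Its log2 difference was -0.87 ± 0.22 from Tfh21 (adjusted p = 0.0485) and -0.95 ± 0.22 from Tfh214 (adjusted p = 0.0302).

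The other 2 called against Tfh21 lay in intron 99 of Syne2, a nuclear envelope protein that ties the nucleus to the cytoskeleton, and in Nfia. Syne2, at chr12:77187452-77188514, stood at 43.6 CPM in WT Tfh21 and 30.6 in WT Tfh4 and at 61.8 and 31.5 CPM in the same populations of KO, a log2 difference of -0.73 ± 0.18 (adjusted p = 0.0478). The strongest Nfia peak stood at 87.3, 80.2 and 64.8 CPM in the WT libraries and at 99.9, 81.4 and 66.2 CPM in the KO ones. The populations stood in the same order in both genotypes, with WT and KO nearly alike in Tfh214 and Tfh4, and the log2 difference of Tfh4 from Tfh21 was -0.51 ± 0.13 (adjusted p = 0.0478).

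The other 6 peaks were called against Tfh214 alone. Rassf6, a Ras-association domain protein, had a peak in intron 4 at chr5:91040527-91041659 with 51.1 CPM in WT Tfh214 and 15.3 in WT Tfh4, and 43.8 and 33.9 CPM in the same populations of KO (log2 difference -1.02 ± 0.22, adjusted p = 0.0198). The step in WT was the larger, and WT Tfh21 was also low at 25.8 CPM. In intron 1 of Prkch, protein kinase C eta, at chr12:74705626-74706404, the values were 34.7, 40.9 and 15.3 CPM in the WT libraries and 36.2, 37.6 and 25.8 CPM in the KO ones (-0.94 ± 0.22, adjusted p = 0.0302). Ikzf1, the lymphoid factor Ikaros, had in intron 3 at chr11:11625568-11626553 51.7, 56.6 and 36.4 CPM in the WT libraries and 57.1, 60.1 and 37.9 CPM in the KO ones (-0.64 ± 0.16, adjusted p = 0.0453). Here WT and KO were nearly the same and Tfh4 was apart from the other populations in each. Mef2c, a MADS-box transcription factor, Galnt2, a glycosyltransferase, and Clec16a, a gene of autophagy, had log2 differences of -0.93, -0.94 and -0.84 (adjusted p = 0.0479, 0.0407 and 0.0302). The calls at Ikzf1 and Galnt2 were lost whichever library was left out.

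**Figure D5:**
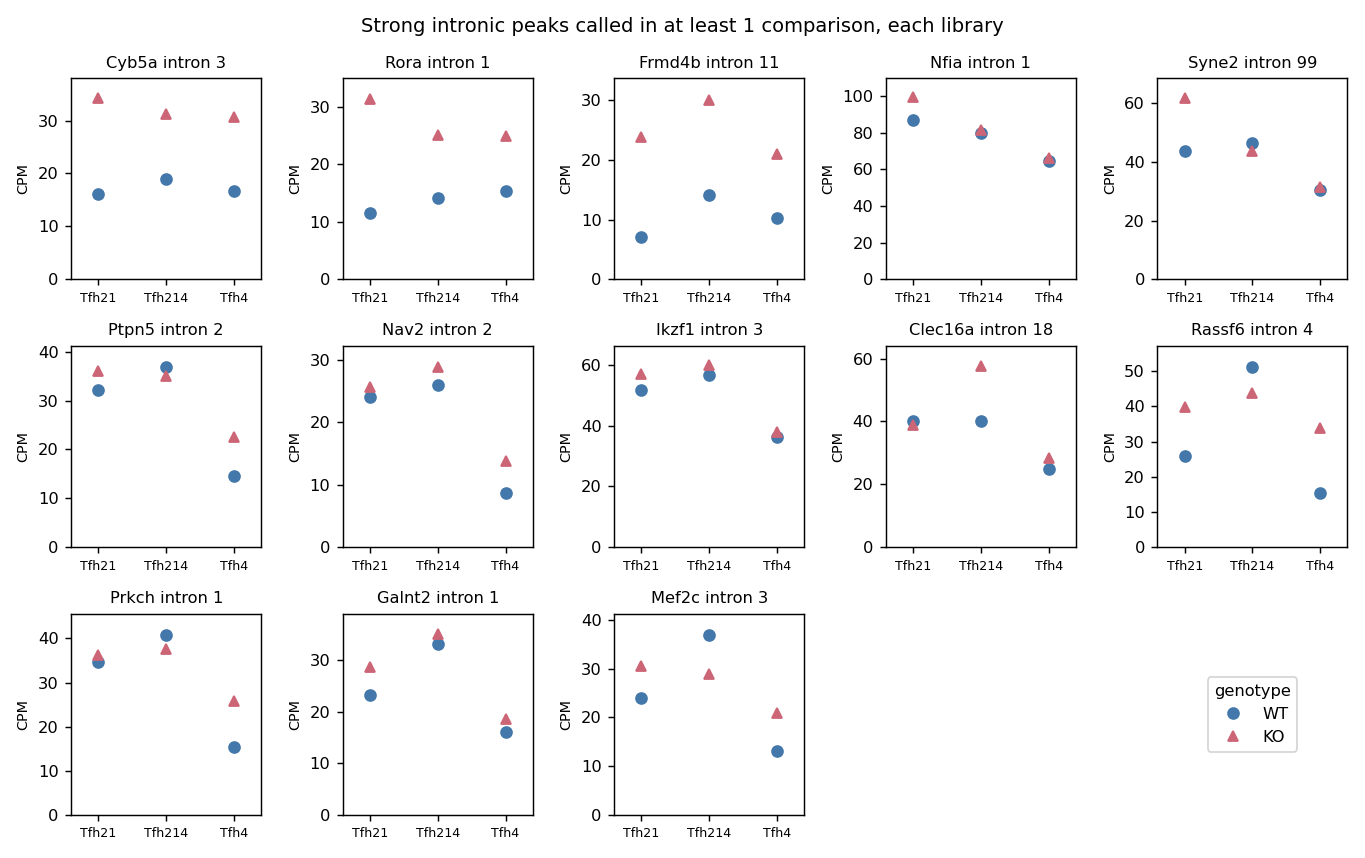
CPM in each library (y axis from 0) of the 13 strong intronic peaks called in at least 1 comparison, by population (x axis), with WT as blue circles and KO as red triangles, 1 library for each point. KO lies above WT in every population for Cyb5a, Rora and Frmd4b, and both Tfh4 points lie under both Tfh214 points at the other 10.

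Tfh4 was highest at few peaks, and none passed the test. Among the largest positive differences of Tfh4 from Tfh21 were those in introns of Slco3a1 and Serinc3. The Slco3a1 peak in intron 3 stood at 12.5 CPM in WT Tfh21 and 21.8 in WT Tfh4, and at 20.9 and 25.8 CPM in the same populations of KO. Between Tfh214 and Tfh21 the extreme values, also not passed, were in Asap1, Unc80 and Frmd4b on the higher side and in Tcf7, Il12rb2 and Nr4a3 on the lower. In Tcf7 intron 2, at chr11:52088937-52089364, the values were 24.0, 10.2 and 9.47 CPM in the 3 WT libraries and 21.9, 13.8 and 14.5 CPM in the KO ones. TCF-1, the product of Tcf7, is a transcription factor of naive, memory-like and Tfh cells, and Tfh21 was the highest population at this peak in both genotypes.

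Genes of T cell identity were read as lists. Of 52 transcription factors of the T lineage, 17 held 26 strong intronic peaks, which is 3.74% of them, while the same genes held 1.22% of all intronic peaks beyond 1000 bases. Beside Nfia, the strongest were in Nfatc1, Foxp1 (51.8 CPM), a factor of T cell quiescence, and Ikzf1 (50.0 CPM). Of the 26, 1 was called for KO against WT (Rora, higher), 1 for Tfh4 against Tfh21 (Nfia, lower) and 1 for Tfh4 against Tfh214 (Ikzf1, lower). The median log2 difference of KO from WT was 0.17, with 21 of 26 above 0, beside 0.23 over all strong intronic peaks. After scaling over the tested peaks it was -0.01, with 12 of 26 above 0. For Tfh4 against Tfh21 the median was -0.43, with 24 of 26 below 0, and -0.17 after scaling, with 16 below 0. The 26 include a Tcf7 peak, given above, at which the Tfh4 pair averaged under 15 CPM. It was a member only through Tfh21, so these counts were partly set by the member rule.

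Of 25 Tfh genes, 7 held 9 strong intronic peaks, in Batf, Tox2, Cxcr5, Lef1, Slamf6, Tox and Tcf7. None passed in any comparison. The median log2 difference of Tfh4 from Tfh21 was -0.56 and all 9 were below 0, and all 9 remained below 0 after scaling over the tested peaks, at a median of -0.29. Over all strong intronic peaks these medians were -0.30 and -0.03. For Tfh4 against Tfh214, 8 of the 9 were below 0 as deposited, at a median of -0.53. After scaling 6 were, at a median of -0.31. The Tfh4 pair averaged under 15 CPM at the weaker Tox2 peak and at the Tcf7 peak given above. Such peaks were members only through other populations, so the counts below 0 were partly set by the member rule. At the weaker Tox2 peak the 3 WT libraries also averaged under 15 CPM. The peaks in Lef1 and Tcf7 belong also to the transcription factor list above, so the lists are not independent. In intron 1 of Cxcr5, the chemokine receptor that brings Tfh cells into follicles, the peak at chr9:44323625-44324358 stood at 24.0, 29.1 and 19.7 CPM in the 3 WT libraries and at 36.2, 36.3 and 21.0 CPM in the KO ones. In intron 3 of Lef1, a factor related to TCF-1, the values were 29.4, 31.5 and 20.4 CPM in the WT libraries and 37.1, 27.5 and 18.6 CPM in the KO ones, with a log2 difference of Tfh4 from Tfh21 of -0.73 (adjusted p = 0.0799). Tfh4 was the lowest population in both genotypes at both genes. In Batf, an AP-1 factor needed for Tfh cells, the peak in intron 2 stood at 31.2, 33.8 and 24.8 CPM in the WT libraries and 41.9, 43.8 and 33.1 CPM in the KO ones, with KO above WT in each population. In intron 1 of Tox2, an HMG-box factor, the values were 13.4, 18.1 and 9.47 CPM in the WT libraries and 28.5, 25.05 and 17.8 CPM in the KO ones, a log2 difference of KO from WT of 0.78 (adjusted p = 0.101), while the stronger Tox2 peak in intron 2 had a difference of 0.07.

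Of 44 genes of T cell receptor signalling and costimulation, 7 held 10 strong intronic peaks (1.44%, against 0.698% of all intronic peaks beyond 1000 bases). None passed. All 10 had a higher KO than WT mean, with a median log2 difference of 0.37, and all 10 were still above 0 after scaling over the tested peaks, at a median of 0.19. Over all strong intronic peaks, 609 of 695 (87.6%) were above 0 as deposited, at a median of 0.23. After scaling these were 425 of 695 and 0.05. Cblb, a ubiquitin ligase that restrains T cell receptor signals, held 4 of them over 86.8 kb. The strongest, in intron 3 at chr16:52094863-52096087, stood at 33.8, 40.1 and 36.4 CPM in the 3 WT libraries and at 63.7, 51.3 and 46.8 CPM in the KO ones. The groups did not overlap, and the log2 difference of 0.53 did not pass (adjusted p = 0.0755). The other Cblb peaks had log2 differences of 0.35, 0.44 and 0.20. In intron 1 of Cd28, the main costimulatory receptor, the values were 16.9, 16.5 and 10.9 CPM in the WT libraries and 20.9, 18.8 and 21.8 CPM in the KO ones, likewise without overlap. The WT libraries averaged under 15 CPM at this Cd28 peak, so it was a member only through its KO values. Its direction, counted among the 10, was thus partly set by the member rule. Of the 10, the 4 in Cblb come from a single gene.

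Of 42 genes of cytokine receptors and their JAK, STAT and SOCS partners, 4 held 1 strong intronic peak each, in Jak1, Tgfbr2, Il2ra and Il12rb2, and none passed. The 4 peaks were 0.576% of the strong intronic peaks, against 0.255% of all intronic peaks beyond 1000 bases. Tgfbr2, a receptor chain for TGF-beta, stood at 12.5, 23.6 and 10.9 CPM in the 3 WT libraries and at 24.7, 25.05 and 26.6 CPM in the KO ones (log2 difference 0.74, adjusted p = 0.103). The KO libraries were alike and the WT ones were not. The Th2 list, genes such as Il4, Il13 and Gata3 that lie downstream of IL-4 in T cells, held 0 strong intronic peaks among its 35 intronic peaks beyond 1000 bases. As 0.8998% of all such peaks were strong, 0 of 35 is near that share. The Th1 list held 1 (Il12rb2), among 92 such peaks. The regulatory T cell list held 3 among 128, in Tgfb1, Ikzf2 and Il2ra. Of the 28 genes of trafficking and adhesion, 4 held 6, in Cd44, Cxcr5, Cd69 and Dock10, among 336 such peaks of the list. Cd69, an early activation receptor that keeps cells in tissue, stood at 19.6, 19.7 and 16.7 CPM in the WT libraries and 37.1, 25.05 and 29.1 CPM in the KO ones in intron 1 (log2 difference 0.66, adjusted p = 0.101), with no overlap of the groups.

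Of the lists for other cells, the myeloid list and the CD8 T and NK list held 0 strong intronic peaks. The B cell list held 1 among 74 such peaks, in intron 6 of Pax5, the factor that defines B cells, at chr4:44637347-44638063. It stood at 23.2, 20.4 and 17.48 CPM in the 3 WT libraries and at 16.2, 18.8 and 16.1 CPM in the KO ones, a log2 difference of -0.24 (adjusted p = 0.573). KO was under WT in each population here. The T cell list held 3, among them peaks in Cd2 and Cd28.

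Some genes carried several strong intronic peaks. There were 72 genes with 2 and 32 with at least 3. Thus 263 of the 695 peaks shared their gene with another member and cannot be assumed to be independent of it. At 48 pairs of neighbours the gap was within 10000 bases. Stk39, a kinase that acts on ion cotransporters, held 6 over 170 kb in introns 1 to 14. At all 6 the KO mean was above the WT mean and Tfh4 was lower than Tfh21, with log2 differences of KO from WT of 0.15 to 0.35. Its strongest, at chr2:68273699-68274384, stood at 43.6, 51.9 and 26.2 CPM in the 3 WT libraries and at 42.8, 46.3 and 42.0 CPM in the KO ones, so only WT Tfh4 stood apart. Nfia and Prkch held 5 each. All 5 peaks in each of these genes were lower in Tfh4 than in Tfh21, with log2 differences of -1.06 to -0.16 in Nfia and -0.91 to -0.30 in Prkch. Over all strong intronic peaks, 87.6% had KO above WT and 89.5% had Tfh4 below Tfh21. The counts at Stk39, Nfia and Prkch are near those shares and are not particular to these genes.

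Sfi1 held the most, 12 peaks within 51.3 kb of chromosome 11 in introns 4 to 29, out of 65 intronic peaks listed for it beyond 1000 bases. They were short, with a median of 409.5 bases, and lay at 15.3 to 36.8 CPM. The strongest, in intron 22, stood at 36.5, 33.8 and 33.5 CPM in the 3 WT libraries and at 37.1, 45.1 and 34.7 CPM in the KO ones. Their median log2 difference of KO from WT was 0.06, with 8 of 12 above 0. Whether the reads there are shared with near-identical copies elsewhere in the genome was not tested, so these 12 are uncertain. Without them the medians over the remaining 683 peaks were 0.23 for KO against WT and -0.31 for Tfh4 against Tfh21.

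Differences were also compared between peaks of the same gene. Across the 72 genes with exactly 2 members, Pearson's r between the log2 differences of both was -0.08 for KO against WT, 0.04 for Tfh214 against Tfh21, 0.20 for Tfh4 against Tfh21 and -0.02 for Tfh4 against Tfh214. Of the members, 468 (in 347 genes) had a tested peak at the start site of the same gene, and across these r between the intronic and the start-site difference was 0.01, 0.06, 0.06 and -0.01 in the same order. These points share the 6 libraries and their depth. The SD of the KO against WT differences over the 695 peaks was 0.20, and the median SE of a single one was 0.21. At this depth a relation between peaks of a gene was hardly detectable, and an r near 0 does not show that there was none. As a separate measure, the level of the same peak was compared between pairs of libraries, and r of log2 levels across the 695 peaks was 0.717 to 0.793. That level also chose the peaks, and it was not compared between peaks of the same gene.

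Over the 6 libraries the median SD of a strong intronic peak was 0.31 on the log2 scale, against 0.27 over all tested peaks, and the highest library was a median of 1.80 times the lowest. At 199 peaks that ratio was at least 2 and at 12 at least 3. The steadiest were in intron 4 of Arid5b, an AT-rich interaction domain protein (SD 0.11), in Arrdc3 and in intron 3 of Nfkb1, the NF-kappaB subunit p105/p50 (SD 0.11). The Arid5b peak stood at 28.5, 33.0 and 26.2 CPM in the 3 WT libraries and at 30.4, 28.8 and 29.9 CPM in the KO ones. The most variable were those in Frmd4b, Nav2 and Mid1, which also stood out in the comparisons above. The chi-square of the reads over the 6 libraries divided by its degrees of freedom had a median of 1.26, against 1.09 over all tested peaks, and 0.741 against 0.671 after scaling over the tested peaks. With that scaling, the reads of a typical member varied no more than independent counts would.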

How the data were processed

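ATAC-seq libraries of 6 groups were analysed from 1 deposited table of 282898 peaks. Its values are CPM as deposited by the authors, each column summing to 1000000, with gene section and distance per the file headers; the submitters' processing notes name Bowtie 1.3.0, MACS2 2.0, HOMER and the build mm9, but no roles. Peak calling per library or pooled, duplicate removal and shifting of cut positions are not given in the sources used here. Whole reads were recovered from the value of 1 read (at least 99.9989% of values within 0.02 of a whole number).

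limma 3.58.1 (R 4.3.3), with a variance trend by level, was fitted to log2(CPM + 1), which understates changes of low peaks, with genotype and population as terms, over the 12979 peaks averaging 10 CPM or more; 2 residual degrees of freedom remained. Adjustment was by Benjamini-Hochberg over all of them at 0.05. It was tested on simulated data. The recovered reads also went through edgeR 4.0.16 and DESeq2 1.42.0. Ratios of reads carry exact binomial intervals, shares Wilson intervals. Python 3.11.15 was used for the rest. All 6 columns were used.

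The members, gene lists, variance trend and tests were chosen with earlier results of these data known. Named peaks are the 10 strongest, those of genes with at least 5, up to 5 called in each direction (or the 3 most extreme), the extremes of each KO and WT pair, of distance, of spread and around 15 CPM, and the strongest of each list. Ikzf1, Mef2c and Clec16a as called peaks, and some list members, were picked after their values were seen. Peak sequences are not printed, since no mm9 genome was used here.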

Additional observations from a re-analysis of the deposited data

How the results depend on the processing

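Of 228 values under alternatives, 151 stayed within the spread or within 1.5 times of the reported value, 77 moved and 0 turned direction past that spread. The median of Tfh214 against Tfh21 crossed 0, to 0.01 with scaling over the tested peaks and to 0.02 and 0.10 without KO Tfh21 and without KO Tfh214. The 3 peaks called higher in KO became 0 with either median-ratio scaling (that over tested peaks was added after seeing the data), without the variance trend, with edgeR and with DESeq2. They became 1 with a minimum of 5 CPM, with no minimum and with no population term, and 6 with a minimum of 20 reads. Without both Tfh21, Tfh214 or Tfh4 libraries they were 0, 29 and 1, and leaving out 1 library gave 0 to 33. The 4 peaks lower in Tfh4 than in Tfh21 became 0 with either scaling, without the trend, with 5 CPM, with no minimum and with edgeR and DESeq2, 9 with 20 reads, and 0 to 35 without 1 library. The 8 lower in Tfh4 than in Tfh214 became 0 under the scalings, without the trend and with edgeR and DESeq2, 2 with 5 CPM, 1 with no minimum, 14 with 20 reads, and 0 to 21 without 1 library. Peaks lower in Tfh214 than in Tfh21 were 0 to 1 without 1 library.

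With scaling over tested peaks the medians were 0.0498 for KO against WT, -0.0347 for Tfh4 against Tfh21 and -0.0465 for Tfh4 against Tfh214. The Tfh4 against Tfh21 median was -0.27 with median-ratio scaling over all peaks, -0.26 with a pseudocount of 5 and -0.36 to -0.22 without 1 library. Peaks at least 2-fold higher in KO were 5, 2 and 12 in Tfh21, Tfh214 and Tfh4 with scaling over tested peaks, 6, 0 and 7 with a pseudocount of 5, and 127, 40 and 177 at 1.5-fold. Those lower were 1 in Tfh214 and 0 in Tfh4 with a pseudocount of 5, and 3, 20 and 5 at 1.5-fold. Peaks with all KO above all WT were 50 with scaling over tested peaks, and those below were 20, or 2 with scaling over all peaks. Of reads in tested peaks, members took 4.39, 4.67 and 4.12% in WT (Tfh21, Tfh214, Tfh4) and 4.61, 4.39 and 4.66% in KO. The cause of these moves was not tested. For the 15 calls of single peaks, 87 of 251 values under alternatives stayed called and 0 changed direction. Depth limits single peaks: a median member held 19 to 29 reads in a library. By replicate number no paired analysis was possible because each group had 1 library; the population term already sets KO beside WT within populations.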
